A study of Arabidopsis thaliana with 12 samples.

Results

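The response of wild-type (WT) Arabidopsis thaliana seedlings to abscisic acid (ABA) was examined in 6 of the 12 RNA-seq libraries of the experiment, namely 3 libraries of untreated WT and 3 of WT treated with ABA. All 6 come from the accession Col-0 with no transgene or mutation, and the members were taken from the sample titles. Seedlings of 2 weeks were grown on medium with sucrose, and the treated ones were kept with ABA for 2 h in the light; the ABA concentration used for sequencing is not given in the sources used here. Whole seedlings were used, so tissues are mixed, and the methods describe pooling the seedlings of a genotype and treatment into a single sample. The other 6 libraries, from the gpl-1 mutant, were not used here.

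ABA is the plant hormone of drought and seed dormancy. It is bound by PYR/PYL receptors, which then inhibit clade A protein phosphatases 2C and so release SnRK2 kinases that activate transcription factors of the ABF family. RNA polymerase II transcribes the protein-coding genes that these factors act on, as well as miRNA and most long noncoding genes. The large rRNAs are made by RNA polymerase I in the nucleolus, where small nucleolar RNAs (snoRNAs) guide their modification, and tRNAs are made by RNA polymerase III. Chloroplasts and mitochondria transcribe rRNAs and tRNAs of their own. The sample records name polyadenylated RNA as the input. Mature cytosolic rRNA and tRNA carry no poly(A) tail, so such a preparation keeps little of them.

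The deposited counts are totals per gene biotype, that is, per class of gene in the annotation. There are 9 classes, and no count of a single gene can be read from them. A table of values per gene accompanies the article but was not used here, so the labels were not checked against marker genes of the ABA response or of seedling tissues. Each library held between 24735276 and 32095090 counted fragments. Shares are given as counts per 1000000 counted fragments (CPM), and the 95% Wilson intervals quoted cover counting error only.

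Replicates 1 and 2 were alike in both groups. A chi-square test of their counts over the 9 biotypes gave a ratio of chi-square to degrees of freedom of 0.908 in WT (p = 0.508) and 0.815 in WT with ABA (p = 0.589), which is within sampling noise. The ratios of these libraries to replicate 3 were at least 3935 in WT and at least 384 in WT with ABA. Replicates 1 and 2 were thus counted as 1 sample, here called the pair, and means are given over the pair and replicate 3 (n = 2). The smallest p that a two-sided exact permutation test of 2 samples against 2 allows is 0.333. For the libraries taken as deposited, 3 against 3, it is 0.10, and that test counts the pair as separate samples. In WT, replicate 3 lay nearer to the ABA pair than to the WT pair in 7 of the 9 biotypes, on the log2 scale. These 7 include protein-coding genes, whose share moves against the other classes, and snRNA, with at most 23 counts per library. The shares add up to a fixed total, so the biotypes are not separate observations. Replicate 3 of WT with ABA lay nearer to the WT pair in 3 of 9. Whether replicate 3 differs by batch, by seedlings or by a label was not tested. Nor was it tested whether replicates 1 and 2 are repeat libraries of 1 RNA pool.

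Ribosomal RNA had the largest difference that pointed the same way in the pair and in replicate 3. The rRNA class has 15 exons in the annotation, of which 4 are nuclear, 8 lie in the chloroplast genome and 3 in the mitochondrial genome. The nuclear exons are an 18S and a 5.8S gene on chromosome 2 (AT2G01010 and AT2G01020) and the same on chromosome 3 (AT3G41768 and AT3G41979). RefSeq calls AT2G01020 a 5S gene, but its 164 bases are identical to those of AT3G41979, with 0 mismatches, whereas the 18S copies have 2 mismatches over 1808 bases. In the chloroplast, the 16S, 23S, 4.5S and 5S genes are each present in 2 copies that have 0 mismatches. Reads of identical copies cannot be told apart, but they fall in the same class. The count does not say whether fragments came from nuclear, chloroplast or mitochondrial genes. The input was polyadenylated RNA, which keeps little of mature cytosolic rRNA. Mitochondrial members, which this count also pools, are not shown. The shortest nuclear and the shortest chloroplast member are shown as examples from their genomes. Both come from TAIR10.1 (RefSeq), in which their coordinates are those of the deposited annotation, chr3:14199753-14199916 (plus strand) and chloroplast positions 107599 to 107701 (plus strand). All bases are in lower case because no part is singled out.
5.8S rRNA: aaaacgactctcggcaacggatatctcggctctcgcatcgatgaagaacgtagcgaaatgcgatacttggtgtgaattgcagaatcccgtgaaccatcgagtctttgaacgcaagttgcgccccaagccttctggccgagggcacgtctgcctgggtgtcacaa
Chloroplast 4.5S rRNA: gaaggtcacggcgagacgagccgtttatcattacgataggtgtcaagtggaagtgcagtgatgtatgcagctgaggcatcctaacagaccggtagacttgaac

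The rRNA share was 3717, 3711 and 1573 CPM in replicates 1, 2 and 3 of WT. With ABA it was 1537, 1535 and 1115 CPM. The 3 ABA libraries were all below the 3 WT libraries, but replicate 3 of WT lay only just above the ABA pair. Its interval of 1557 to 1588 CPM did not meet that of replicate 1 with ABA, 1523 to 1550 CPM. Nor did it meet that of replicate 1 of WT, 3696 to 3739 CPM, and these intervals cover counting error only. Between the pairs the share was 0.414 times as high with ABA (log2 difference of -1.27), and between the replicate 3 libraries 0.709 times (-0.50). Over the pair and replicate 3, the share was 2643 ± 1514 CPM in WT and 1325 ± 298 CPM with ABA (SD, n = 2 each). The difference between the means is smaller than the SD of WT. The exact permutation p was 0.333 for 2 samples per group and 0.10 for 3 libraries, the smallest value in each design. Per length, rRNA was the class with the highest level in every library, at 63.3 to 211 CPM per kb of exon, against 24.1 to 24.2 CPM per kb for protein-coding exons.

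Small nucleolar RNAs had almost the same difference in both comparisons. They are short nuclear RNAs, with 71 exons of a median length of 84 bases in the annotation. Of the bases of these exons, 9.6% lie inside protein-coding exons. The input was polyadenylated RNA, and the counts do not say whether fragments came from mature snoRNAs or from longer transcripts. The snoRNA share was 52.1, 52.2 and 59.4 CPM in WT and 40.6, 40.6 and 46.5 CPM in WT with ABA, for replicates 1, 2 and 3. The groups did not overlap, and the log2 difference was -0.36 between the pairs and -0.35 between the replicate 3 libraries. Replicate 3 was the highest library in both groups. The counts behind these shares run from 1150 to 1628 fragments per library. The mean was 55.8 ± 5.1 CPM in WT and 43.6 ± 4.2 CPM with ABA (SD, n = 2 each; exact permutation p = 0.333).

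Noncoding RNAs of the ncRNA class, with 1132 distinct exons of a median length of 260 bases, were also lower with ABA. Their share was 1822, 1795 and 1504 CPM in WT and 1279, 1283 and 1216 CPM with ABA. The groups did not overlap, with replicate 3 the lowest library of each. The log2 difference was -0.50 between the pairs and -0.31 between the replicate 3 libraries, and the means were 1656 ± 216 CPM and 1249 ± 46.0 CPM (SD, n = 2 each; exact permutation p = 0.333). Of the 429348 bases covered by ncRNA exons, 47.0% lie inside protein-coding exons, and 198184 of the 201849 shared bases face a protein-coding exon on the opposite strand. Fragments were counted without strand and a fragment that met exons of different classes was not assigned to either, so fragments on the shared bases are missing from this share. The plot of exon overlap shows that no other class had as large a part of its bases inside protein-coding exons.

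**Figure D1:**
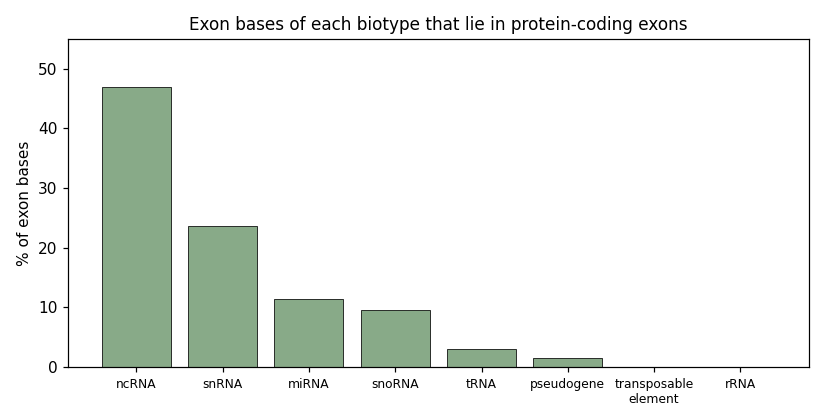
Percentage of the exon bases of each biotype that lie inside protein-coding exons on either strand, from the coordinates in the deposited files (1 bar per biotype, no replicates). The ncRNA class stands highest at 47.0% and snRNA follows at 23.6%, whereas rRNA is at 0.

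Transposable elements, mobile DNA that is mostly kept silent in seedlings by DNA methylation and histone marks, took 1689, 1691 and 1604 CPM in WT and 1369, 1368 and 1557 CPM with ABA. The groups did not overlap, but replicate 3 of WT and replicate 3 with ABA lay close together. The log2 difference was -0.30 between the pairs and -0.04 between the replicate 3 libraries. The intervals of the latter, 1588 to 1620 CPM in WT and 1541 to 1572 CPM with ABA, did not meet. They cover counting error only, and untreated libraries also had intervals that did not meet. That of replicate 1 of WT was 1674 to 1703 CPM, above that of replicate 3 of WT. Their exons are the second longest class after the protein-coding exons, 9051105 bases against 40918553, and per length they were low, at 0.151 to 0.187 CPM per kb.

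Protein-coding genes, which include the known targets of ABA signalling, took 99.15% of the counts in each library of the WT pair and 99.31% in the remaining WT library. With ABA they took 99.4% in each of the 3 libraries. The groups did not overlap here either, and the log2 difference was under 0.01 in both comparisons. Since all classes add up to the library total, this share moves against the sum of the other classes, which was 8528, 8500 and 6858 CPM in WT and 5938, 5924 and 5710 CPM with ABA. The share says nothing of how single protein-coding genes responded.

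**Figure D2:**
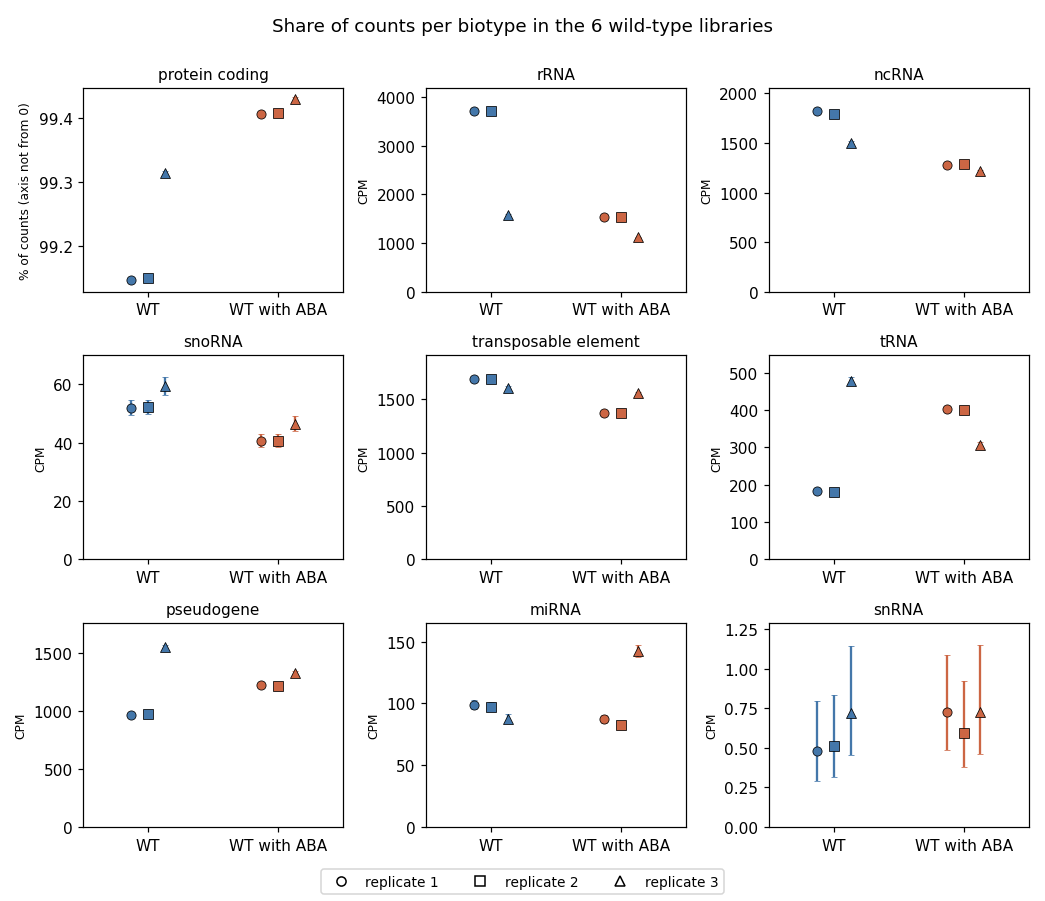
Share of counts of each biotype in the 6 libraries, in CPM from 0, or in percent on an axis that does not start at 0 for protein-coding genes. Each symbol is 1 library, and bars are 95% Wilson intervals (counting error only). Except for snRNA, replicates 1 and 2 nearly coincide in both groups while replicate 3 stands apart, as for rRNA (3717, 3711 and 1573 CPM in WT). For snRNA with ABA, replicates 1, 2 and 3 are at 0.725, 0.592 and 0.728 CPM, with wide intervals.

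In all, the 3 libraries of each group did not overlap in 5 of 9 biotypes (55.6%). Of these, 4 of 9 (44.4%) were lower with ABA, namely rRNA, ncRNA, snoRNA and transposable elements, and 1 of 9 (11.1%), protein-coding genes, was higher. All 9 biotypes are members, so this percentage is also the background, and nothing is read from it about any single class. None of the 9 reached an adjusted p under 0.05 in the exact permutation test over 3 libraries per group, which could not reach it, and 0 had an unadjusted p under 0.05. The smallest adjusted p was 0.18. Model-based fits, which take the pair as separate samples and so give p-values that are too small, called 2 of 9 (22.2%) each. These were snoRNA and ncRNA in limma with the replicate number as a block, and ncRNA and protein-coding genes in edgeR with library totals. The block assumes that WT and ABA libraries of the same number belong together, which is not known. In edgeR with TMM factors, which rescale the library totals, 0 were called, and 1, rRNA, had an unadjusted p under 0.05.

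Transfer RNAs, the adaptors of translation, differed in opposite ways in the pair and in replicate 3. Their share was 182, 181 and 479 CPM in replicates 1, 2 and 3 of WT, and 403, 400 and 306 CPM in those of WT with ABA. Between the pairs it was 2.21 times as high with ABA (log2 difference of 1.14), and between the replicate 3 libraries 0.639 times as high (-0.65). The highest tRNA share of the 6 libraries was in an untreated library, and the groups overlapped. Means were 330 ± 210 CPM in WT and 354 ± 67.2 CPM with ABA (SD, n = 2 each; exact permutation p = 1.0 for 2 samples per group and 0.40 for 3 libraries). The class has 697 exons with a median length of 72 bases, of which 631 are nuclear, 45 chloroplast and 21 mitochondrial, and the count does not say which of them gave the fragments.

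The ratio of rRNA to tRNA counts brings both classes together. For untreated WT it was 20.5 in each library of the pair and 3.28 in replicate 3. With ABA it was 3.82, 3.84 and 3.64. Replicate 3 of WT thus had a ratio below all 3 ABA libraries, whereas the WT pair was above them.

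Pseudogenes, degenerate copies of genes, also changed sides between the comparisons. Their share was 967, 971 and 1552 CPM in WT and 1222, 1214 and 1326 CPM with ABA. All ABA libraries lay within the range of the WT libraries. The log2 difference was 0.33 between the pairs and -0.23 between the replicate 3 libraries, and the means of 1260 ± 412 CPM and 1272 ± 76.5 CPM (SD, n = 2 each) differed by less than the SD of either group (exact permutation p = 1.0).

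MicroRNAs silence messenger RNAs of matching sequence and are cut from longer transcripts. The exons of the miRNA class have a median length of 126 bases, longer than the mature miRNAs. Its share was 99.0, 97.3 and 87.3 CPM in WT and 87.4, 82.4 and 143 CPM with ABA. Replicate 3 with ABA was the highest library and the pair with ABA held the lowest, so the groups overlapped. The log2 difference was -0.21 between the pairs and 0.71 between the replicate 3 libraries (exact permutation p = 1.0 for 2 samples per group and 0.90 for 3 libraries).

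Spliceosomal snRNAs were at the limit of what these libraries could show. Their class has 13 exons, among them genes for U2 (U2.2, U2.3, U2.4, U2.6 and U2.7), U12 and U6acat, RNAs of the major and the minor spliceosome. There were 15, 16 and 18 counts in WT and 23, 19 and 18 counts with ABA. The share was 0.482 CPM in replicate 1 of WT, with an interval of 0.292 to 0.796, and 0.725 CPM in replicate 1 with ABA, with an interval of 0.483 to 1.09. The intervals overlap, and a difference was not detectable at these counts.

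**Figure D3:**
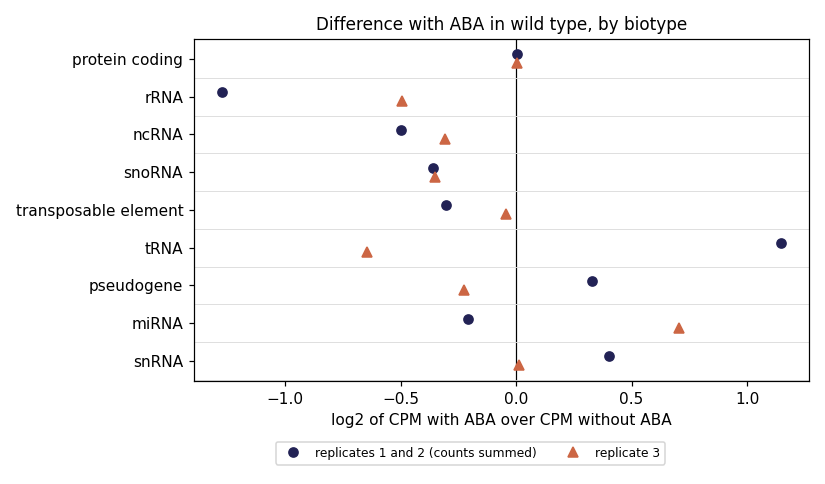
Log2 of the CPM with ABA over the CPM without ABA for each of the 9 biotypes, between the pairs of replicates 1 and 2 (circles, counts summed) and between the replicate 3 libraries (triangles). Circles and triangles lie on the same side of 0 for 6 biotypes and on opposite sides for tRNA (1.14 and -0.65), pseudogenes (0.33 and -0.23) and miRNA (-0.21 and 0.71).

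The difference between the pairs and that between the replicate 3 libraries had the same sign in 6 of the 9 biotypes, and in 4 of 7 once protein-coding genes and snRNA are left aside. For snRNA both were positive, 0.40 and 0.01, on the counts given above. The replicate numbers are not known to link a WT library to an ABA library, so the comparison of replicate 3 with replicate 3 is a side-by-side of libraries that stand apart from the rest of their own group. Within WT, replicate 3 differed from the pair by a log2 difference of -1.24 for rRNA, where the ABA pair differed from the WT pair by -1.27. For tRNA these values were 1.40 and 1.14, and for pseudogenes 0.68 and 0.33, so untreated libraries were farther apart than the pairs with and without ABA. For snoRNA, replicate 3 differed from the pair by 0.19 in WT and by 0.20 with ABA, less than the -0.36 between the pairs.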

How the data were processed

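RNA-seq libraries were grouped by genotype and treatment from their titles, with 3 libraries per group. The authors trimmed reads with Trim Galore, aligned them in pairs to TAIR10 with Bowtie2 and deposited the raw output of featureCounts 2.0.1. Per the file headers, the count of a biotype is the number of fragments on its exons, on either strand. Pairs with an unmapped mate and chimeric pairs were dropped, marked duplicates stayed in, and fragments on exons of several classes were left out by default. Unstranded counting of a library that the records call directional can move antisense reads between classes.

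Counts were divided by the library total (CPM, 24735276 to 32095090 fragments), and compared by a two-sided exact permutation test of log2 CPM with Benjamini-Hochberg adjustment over the 9 biotypes. Every biotype was named. Alternatives were other denominators, edgeR 4.0.16, limma 3.58.1 with a replicate block, replicates 1 and 2 summed, and libraries left out. The edgeR and limma fits and the chi-square ratio were tested on simulated data. The libraries simulated for the fits were independent, with no near-identical pair and no replicate 3 that stood apart. That test thus does not cover these features of the data. The planned fits per gene could not be made from counts per biotype, and the article's table of values per gene was not used here. Exon coordinates were compared with TAIR10.1 by identity (127783 of 159507 nuclear and chloroplast protein-coding exons), and overlaps were computed with bedtools 2.31.1. Mitochondrial coordinates were not compared. The biotypes and tests were chosen with earlier results of these data known. Python 3.11.15, scipy 1.17.1, pandas 2.3.3, numpy 2.4.6, matplotlib 3.10.9 and R 4.3.3 were used.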

Additional observations from a re-analysis of the deposited data

How the results depend on the processing

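All biotypes but miRNA kept their direction under all 15 alternatives (14 for protein-coding genes), each of which held replicate 1 or 2. The log2 difference of miRNA (0.10) reversed to -0.21 without replicate 3 of both groups and to -0.15 without replicate 3 of WT with ABA alone. With each library or replicate number left out, the log2 difference was -1.43 to -0.81 for rRNA (main value -1.01), -0.52 to -0.38 for ncRNA (-0.43) and -0.42 to -0.30 for snoRNA (-0.36). It was -0.30 to -0.17 for transposable elements (-0.22), 0.11 to 0.45 for snRNA (0.27), 0.25 to 1.14 for tRNA (0.55), 0.03 to 0.37 for pseudogenes (0.14) and -0.21 to 0.26 for miRNA. Main values take the pair as 2 samples. With the pair as 1, rRNA was at -0.88, tRNA and miRNA at 0.25 and pseudogenes at 0.05. Without both replicate 3 libraries, tRNA was at 1.14 and pseudogenes at 0.33. Between those 2 libraries they were at -0.65 and -0.23. The exact test called 0 biotypes in all settings, but could not call any. Its smallest p was 0.10 with all libraries, 0.20 with 1 left out and 0.333 for 2 samples per group. A limma fit with the replicate number as a block called 2, snoRNA (-0.36, adjusted p = 0.0014) and ncRNA (-0.43, adjusted p = 0.042). Its block assumes that the replicate numbers link WT and ABA libraries, which is not known. An edgeR fit with library totals, added after seeing the data, also called 2, ncRNA (-0.44, adjusted p = 0.040) and protein-coding genes (0.0031, adjusted p = 0.040). An edgeR fit with TMM factors called 0, with rRNA alone at an unadjusted p under 0.05. Over 9 classes the TMM factor of replicate 2 of WT with ABA was 0.876 against 1.03 for the other 5 libraries. These 3 fits treat replicates 1 and 2 as separate samples, so their p-values are too small. The correlations of same-numbered libraries in their deviations from the group means, over the 9 biotypes, were -0.09, 0.07 and 0.03. Because replicates 1 and 2 nearly coincide, these amount to little more than 1 contrast and do not show whether the numbers pair the samples. Replicate 3 had the lowest total in both groups, 24916053 and 24735276 counts. Alternatives per gene were not run, as counts are per biotype. Depth limits snRNA, with at most 23 counts per library.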
